A study of Homo sapiens with 6 samples.

Results

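The serpins and plasminogen activators described here were taken from the deposited gene count table as protein-coding genes named SERPIN with a clade letter from A to I and a number, with PLAU, PLAUR and PLAT added. They are 36 of the 58735 genes listed, 33 of them serpins. ES2 cells, a human ovarian cancer line labelled as high-grade serous carcinoma, were transfected with siRNAs against UAP1 (genotype label UAP1 knockdown, 3 libraries) or with 1 control siRNA (genotype label WT, 3 libraries), and RNA was taken 48 hours later. For every library, siUAP1 and control alike, fresh medium was given 6 hours after transfection. A small interfering RNA (siRNA) directs the cell to destroy the matching mRNA. The labels list 2 UAP1 siRNAs without saying which library received which, and all libraries come from a single line. UAP1 encodes an enzyme that makes UDP-N-acetylglucosamine, the sugar donor for glycoproteins, hyaluronan and O-GlcNAc.

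Plasminogen activators are serine proteases that cut plasminogen to plasmin, which dissolves fibrin and degrades matrix around cells. Urokinase (PLAU) works bound to its receptor (PLAUR) on the cell surface, and tissue-type activator (PLAT) works mainly on fibrin. Most serpins are suicide inhibitors: a protease cuts an exposed loop and is trapped in the act. Several members of the family have lost this activity and serve as chaperones, hormone carriers or signalling proteins.

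The libraries held 23727266 to 25972582 counts with UAP1 siRNA and 21267240 to 25054159 counts with control siRNA, and 15768 genes had enough counts to be tested. UAP1 itself had 21.8, 23.3 and 25.2 CPM (counts relative to the scaled total of the library) in the siUAP1 libraries, against 345, 357 and 444 CPM in the control libraries (log2 fold change -4.03, SE 0.136, edgeR adjusted p = 6.12e-06). Of 16 markers of serous carcinoma and Müllerian epithelium, 9 were under 1 CPM in both groups, and MUC16, SOX17, FOLR1 and WFDC2 had 0 counts in all 6 libraries, while the keratin genes KRT7, KRT8 and KRT18 were abundant. Most of the defining markers of the labelled cell type were therefore near or at 0. Markers of platelets and of liver cells, which are major natural sources of several serpins, summed to at most 2.30 and 0.209 CPM in any siUAP1 library and to at most 2.79 and 0.235 CPM in any control library. The serous list summed to 1127 to 1424 CPM in siUAP1 libraries and 803 to 899 CPM in control libraries. Of these, KRT7, KRT8 and KRT18 averaged 508, 266 and 515 CPM in siUAP1 libraries and 337, 152 and 362 CPM in control libraries. Fibroblast and mesenchyme markers summed to 5198 to 7340 CPM in siUAP1 libraries and 4789 to 6296 CPM in control libraries. Most of this came from VIM, FN1 and COL1A1, at means of 1874, 2308 and 1819 CPM in siUAP1 libraries. In control libraries these averaged 2075, 1999 and 1025 CPM. Of the 11 markers in this list, 4 were under 1 CPM in both groups, with DCN at 0 counts. Clear cell markers summed to 128 to 143 CPM in siUAP1 libraries and 142 to 148 CPM in control libraries. ARID1A alone averaged 106 CPM in siUAP1 libraries and 117 CPM in control libraries, and 4 of the 7 were under 1 CPM in both groups. Endothelial markers summed to 137 to 176.5 CPM in siUAP1 libraries and 136 to 174 CPM in control libraries. Nearly all of this was CDH5, at means of 148.5 CPM in siUAP1 libraries and 145.4 CPM in control libraries. Of the 8 endothelial markers, 4 were under 1 CPM in both groups, with EMCN at 0 counts. None of 8 leukocyte markers reached 1 CPM in either group's mean. They summed to 1.19 to 2.05 CPM in siUAP1 libraries and 0.611 to 0.865 CPM in control libraries. The part of these markers in the results was not tested.

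Of the 36 genes, 17 had enough counts to be tested, 14 serpins and the 3 genes added to them. In the fit on the groups alone 0 of the 17 were called at an adjusted p under 0.05 (edgeR), where 0.108% of all tested genes were (0.0317% higher and 0.0761% lower), and 6 had an unadjusted p under 0.05, where 7.13% of all genes did. DESeq2 without pairs called 3 of them (PLAU, SERPINB2 and SERPIND1), against 1.11% of the 14975 genes to which it gave an adjusted p. Libraries with the same replicate number deviated together, so siUAP1 was also compared with control within the 3 numbered pairs. In that fit 11 of the 17 changed, 8 higher and 3 lower, against 16.2% of all tested genes (9.07% higher and 7.14% lower). Abundant genes are called more readily. Among genes averaging at least 5 CPM, 10 of 12 members were called, against 21.6% of all genes at that level. At least 0.5 on the log2 scale was reached by 3 of the called members (SERPIND1, SERPINB2 and SERPINA5), against 3.35% of all tested genes. The median log2 fold change of the 17 was 0.246, beside -0.00295 for all tested genes. The members were chosen with earlier results of these data known, so these shares are no test of the set. From here on, rose and fell refer to the fit with pairs, and fold changes and adjusted p-values are from it (edgeR, 3 pairs).

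**Figure D1:**
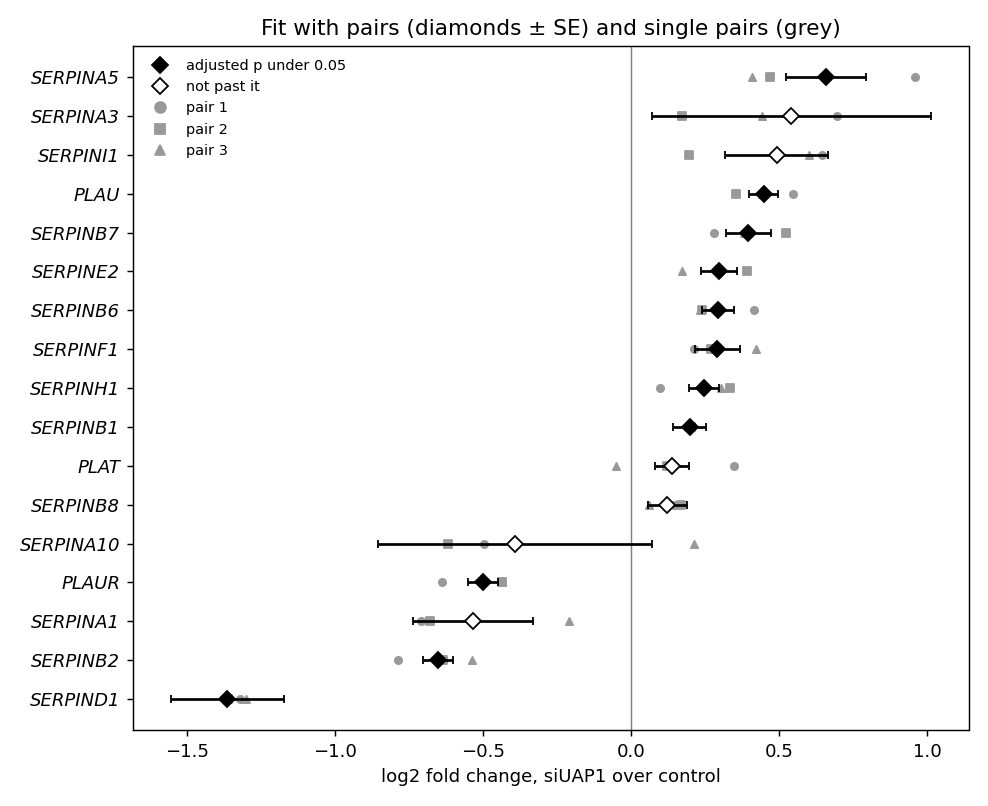
Log2 fold changes of siUAP1 over control for the 17 tested genes, from the fit with pairs (diamonds, with bars of 1 SE, filled where the adjusted p is under 0.05) and from each pair alone (grey). SERPIND1, SERPINB2 and PLAUR lie to the left of 0 in every pair, and PLAU and SERPINB7 to the right of 0 in every pair.

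Genes of the urokinase system moved in opposite directions. Urokinase rose, whereas its receptor and SERPINB2, which inhibits it, fell. The other urokinase inhibitors described here, SERPINE2 (log2 0.30) and SERPINA5 (log2 0.66), rose. PLAU (ENSG00000122861, GRCh38 chromosome 10, 73909177 to 73917497, plus strand) had 758, 626 and 756 CPM in siUAP1 libraries 1 to 3, against 518, 489 and 556 CPM in control libraries 1 to 3. Every siUAP1 library lay above every control library. The rise was 1.36-fold (log2 0.45, SE 0.0482, adjusted p = 2.03e-07), and without pairs the adjusted p was 0.241. In bulk RNA, more RNA per cell and more cells with that RNA cannot be told apart, here and below. PLAU shares 916 of its 2950 exon bases with C10orf55 on the opposite strand, which averaged 2.13 CPM in siUAP1 libraries and 1.79 CPM in control libraries.

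PLAUR encodes the urokinase receptor, a protein held in the membrane by a lipid anchor (ENSG00000011422, chromosome 19, 43646095 to 43670547, minus strand). It had 87.4, 119 and 127 CPM in siUAP1 libraries, against 136, 161 and 172 CPM in control libraries. The lowest control library stood above the highest siUAP1 library. The log2 fold change was -0.50 (SE 0.0510, adjusted p = 8.55e-08; 0.430 without pairs).

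SERPINB2 encodes plasminogen activator inhibitor 2, which is largely kept inside the cell (ENSG00000197632, chromosome 18, 63871692 to 63903890, plus strand). It had 149, 178 and 185 CPM in siUAP1 libraries, against 257, 276.5 and 268 CPM in control libraries. All siUAP1 values were below all control values. The log2 fold change was -0.65 (SE 0.0503, adjusted p = 8.85e-10), and without pairs SERPINB2 came closest of the members to the threshold (adjusted p = 0.0796).

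PLAT, the tissue-type activator, did not pass the test (ENSG00000104368, chromosome 8, 42175233 to 42207724, minus strand). It had 2867, 1703 and 1403 CPM in siUAP1 libraries, against 2254, 1564 and 1453 CPM in control libraries. The groups overlapped, and the number 1 libraries were the highest in each. Its log2 differences were 0.35, 0.12 and -0.05 in pairs 1 to 3, and the paired estimate was 0.14 (SE 0.0574, adjusted p = 0.103).

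**Figure D2:**
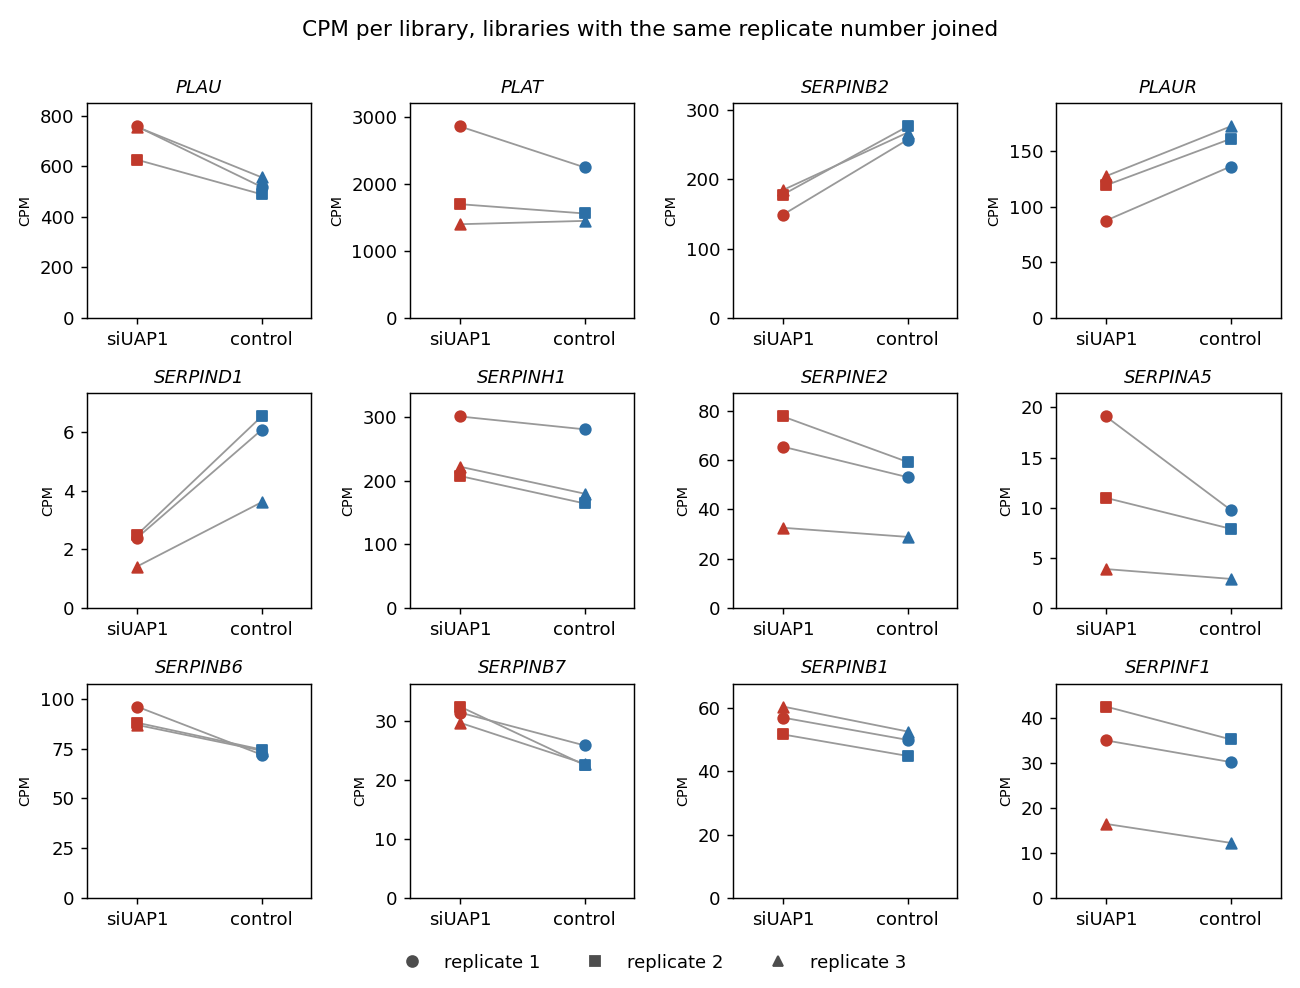
CPM of 12 members in each library, siUAP1 at the left of each panel and control at the right, each axis starting at 0, with libraries of the same replicate number joined by a line. PLAU and SERPINB7 are higher and SERPINB2, PLAUR and SERPIND1 lower in siUAP1 in all 3 pairs, whereas PLAT changes little in pairs 2 and 3.

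Ratios between these genes put the opposite movements side by side in each library. They were formed from FPKM, which also divides by gene length, and carry no test. PLAU stood at 4.74, 3.27 and 3.81 times SERPINB2 in siUAP1 libraries, against 1.88, 1.65 and 1.94 times in control libraries. It stood at 13.1, 7.95 and 8.97 times PLAUR in siUAP1 libraries, against 5.77, 4.60 and 4.89 times in control libraries. Within pairs these ratios were 1.97 to 2.52 and 1.73 to 2.27 times as high in siUAP1 as in control. Since PLAU was above control in every siUAP1 library and SERPINB2 and PLAUR below it, the choice of these genes fixes that the ratios do not overlap between the groups. PLAT to PLAU was 1.69, 1.21 and 0.828 in siUAP1 libraries, against 1.94, 1.43 and 1.17 in control libraries, lower in siUAP1 in every pair although the groups overlapped.

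**Figure D3:**
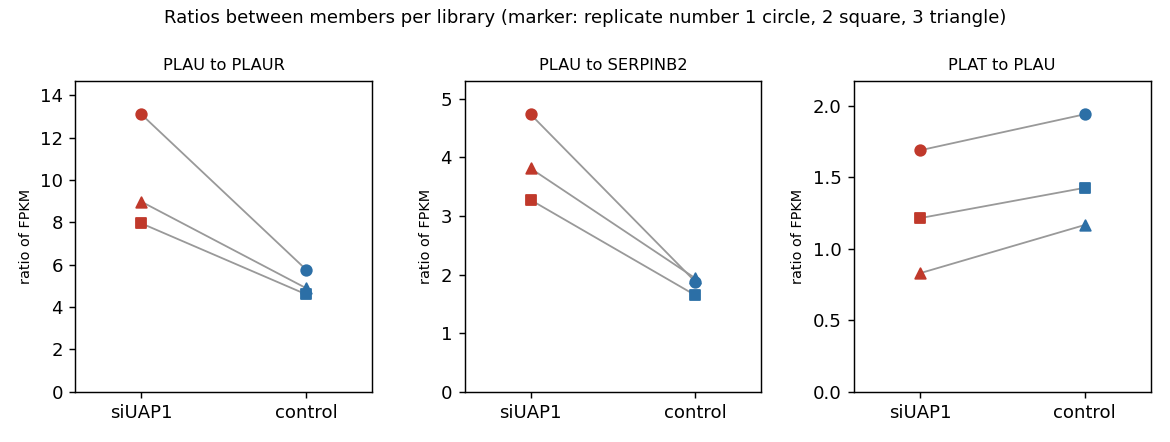
Ratios of FPKM between members in each library, siUAP1 at the left and control at the right, with libraries of the same replicate number joined. PLAU to SERPINB2 is 3.27 or more in siUAP1 libraries and 1.94 or less in control libraries, and PLAU to PLAUR is 7.95 or more in siUAP1 libraries and 5.77 or less in control libraries.

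The promoters of PLAU, PLAUR and SERPINB2 are shown because these urokinase genes moved in opposite directions. Promoter windows of the RefSeq annotation (GRCh38.p14) were at hand for 15 of the 17 tested genes, and PLAT and SERPINF1 had none. The 250 bases before the start are given for PLAU, which rose, and for PLAUR and SERPINB2, which fell, 5′ to 3′ on the gene's strand. Capitals mark letters of the motifs searched on both strands, which were an AP-1 site (TGAGTCA), a SMAD site (CAGACA), a GC box (GGGCGG) and a TATA box (TATAAA). The windows lie at chr10:73910882-73911131 (plus strand) for PLAU, chr19:43670170-43670419 (minus strand) for PLAUR and chr18:63887455-63887704 (plus strand) for SERPINB2.
PLAU: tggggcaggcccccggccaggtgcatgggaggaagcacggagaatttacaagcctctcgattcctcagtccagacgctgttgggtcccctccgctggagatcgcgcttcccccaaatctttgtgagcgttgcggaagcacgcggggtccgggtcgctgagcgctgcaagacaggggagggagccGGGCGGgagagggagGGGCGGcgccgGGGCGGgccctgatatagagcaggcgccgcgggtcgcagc
PLAUR: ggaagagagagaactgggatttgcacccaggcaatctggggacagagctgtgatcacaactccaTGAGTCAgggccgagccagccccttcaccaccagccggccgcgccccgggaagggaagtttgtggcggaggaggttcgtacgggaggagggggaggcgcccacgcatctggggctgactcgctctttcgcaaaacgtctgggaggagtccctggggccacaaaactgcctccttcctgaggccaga
SERPINB2: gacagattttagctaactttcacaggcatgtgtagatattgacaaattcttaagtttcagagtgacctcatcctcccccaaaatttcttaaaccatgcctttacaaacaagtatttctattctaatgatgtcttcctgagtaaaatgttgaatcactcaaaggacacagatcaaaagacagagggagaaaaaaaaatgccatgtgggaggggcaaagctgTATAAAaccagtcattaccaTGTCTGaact

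The PLAU window was 68.8% G and C and held 3 GC boxes, the nearest ending 35 bases before the start. The PLAUR window was 63.2% G and C and held 1 AP-1 match, from 186 to 180 bases before the start. The SERPINB2 window was 37.2% G and C, with a TATA box from 30 to 25 bases before the start and 1 SMAD match on the opposite strand. Positions are counted from the RefSeq start, which lies 25 bases from the start of the principal GENCODE transcript for PLAU, 181 bases from it for PLAUR and at it for SERPINB2, and would differ with another start. All 3 windows lie within the gene spans given above, which reach to the outermost transcript. Among 35116 windows of this length, 4.20% held the AP-1 letters, 13.6% the SMAD letters, 42.6% the GC box and 10.7% the TATA box. Over the 15 members the AP-1 letters stood in 3 (PLAUR, SERPINB7 and SERPINB8), the SMAD letters in 5, the GC box in 7 and the TATA box in 3 (SERPINB2, SERPINB7 and SERPINB8). A match is a description of the letters only.

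Among the other inhibitors of extracellular proteases, SERPINE2, SERPINA5 and SERPIND1 changed. SERPINE2 encodes protease nexin 1, which inhibits thrombin and urokinase. It had 65.5, 77.7 and 32.6 CPM in siUAP1 libraries, against 53.1, 59.3 and 28.9 CPM in control libraries (log2 0.30, SE 0.0604, adjusted p = 9.52e-04). Library 3 was the lowest of both groups, and the groups overlapped. SERPINA5 encodes the protein C inhibitor, which also acts on urokinase. It had 19.1, 10.98 and 3.89 CPM in siUAP1 libraries, against 9.79, 7.90 and 2.91 CPM in control libraries (log2 0.66, SE 0.135, adjusted p = 0.00108). Its pairs gave 0.96, 0.47 and 0.41, and without pair 1 the call ended (adjusted p = 0.0813).

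SERPIND1, which encodes heparin cofactor II, a thrombin inhibitor that acts with glycosaminoglycans, fell the most of the members. It had 57, 65 and 36 counts in siUAP1 libraries, against 129, 166 and 88 counts in control libraries. In CPM these were 2.39, 2.49 and 1.41 in siUAP1 libraries, against 6.07, 6.53 and 3.60 in control libraries, and the groups did not overlap. The log2 fold change was -1.36 (SE 0.192, adjusted p = 1.11e-05), and the pairs gave -1.32, -1.36 and -1.30. The gene (chromosome 22, 20773879 to 20787720, plus strand) lies within PI4KA on the opposite strand but shares none of its exons in GENCODE release 29. Whether reads were counted by strand is not known here, and without it reads of unspliced PI4KA RNA cannot be told apart from those of SERPIND1. PI4KA had 66.4 ± 7.86 CPM in siUAP1 libraries and 65.5 ± 6.74 CPM in control libraries (SD, n = 3 each; log2 0.02, adjusted p = 0.868).

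The remaining secreted inhibitors, of clade A and clade I, were scarce. SERPINA1, which encodes alpha-1 antitrypsin, had 2.47, 2.18 and 3.49 CPM in siUAP1 libraries, against 4.09, 3.54 and 4.05 CPM in control libraries. The groups did not overlap, yet the fit with pairs did not call it (log2 -0.53, SE 0.202, adjusted p = 0.0761). SERPINA3, which encodes alpha-1 antichymotrypsin, had 5 to 34 counts in siUAP1 libraries and 3 to 18 counts in control libraries (log2 0.54, SE 0.471, adjusted p = 0.505). SERPINA10, which encodes an inhibitor of activated factor X, had 9 to 16 counts in siUAP1 libraries and 8 to 25 counts in control libraries (log2 -0.39, SE 0.462, adjusted p = 0.645). SERPINI1, which encodes neuroserpin, an inhibitor of PLAT, had 7.62, 4.25 and 4.51 CPM in siUAP1 libraries, against 4.84, 3.69 and 2.95 CPM in control libraries (log2 0.49, SE 0.173, adjusted p = 0.0534).

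Among the clade B serpins, most of which act inside cells, SERPINB6, SERPINB7 and SERPINB1 rose. SERPINB6, which inhibits trypsin-like proteases and cathepsin G, had 96.1, 88.0 and 86.9 CPM in siUAP1 libraries, against 72.0, 74.5 and 74.0 CPM in control libraries (log2 0.30, SE 0.0538, adjusted p = 2.99e-04). SERPINB7, or megsin, known from kidney mesangial cells and skin, had 31.4, 32.5 and 29.7 CPM in siUAP1 libraries, against 25.9, 22.6 and 22.8 CPM in control libraries (log2 0.40, SE 0.0770, adjusted p = 5.87e-04). Neither overlapped between the groups. SERPINB1, an inhibitor of neutrophil elastase, had 56.9, 51.6 and 60.4 CPM in siUAP1 libraries, against 49.9, 44.8 and 52.5 CPM in control libraries (log2 0.20, SE 0.0572, adjusted p = 0.0176). Its pairs lay within 0.19 to 0.20, but the call ended when pair 2 was left out (adjusted p = 0.0783) and when pair 3 was (adjusted p = 0.132), and DESeq2 with pairs did not call it (adjusted p = 0.143). SERPINB8, which inhibits furin, had 36.2, 38.3 and 47.0 CPM in siUAP1 libraries, against 32.8, 34.04 and 45.0 CPM in control libraries, and did not pass the test (log2 0.12, SE 0.0651, adjusted p = 0.222).

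Both tested serpins known to lack protease-inhibiting activity rose. SERPINH1 encodes HSP47, the collagen chaperone of the endoplasmic reticulum. It had 301, 207 and 222 CPM in siUAP1 libraries, against 280.5, 164 and 179.5 CPM in control libraries (log2 0.25, SE 0.0503, adjusted p = 0.00102), and without pair 3 the adjusted p was 0.0877. SERPINF1 encodes pigment epithelium-derived factor, a secreted regulator of vessel growth. It had 35.0, 42.5 and 16.4 CPM in siUAP1 libraries, against 30.1, 35.2 and 12.2 CPM in control libraries (log2 0.29, SE 0.0762, adjusted p = 0.00900), and without pair 3 the adjusted p was 0.104, and with DESeq2 and pairs it was 0.0817. In both genes the groups overlapped, and the adjusted p without pairs was 0.949 for SERPINH1 and 0.980 for SERPINF1.

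Compared per length, the activators stood above every serpin described here. PLAT averaged 298 ± 115 FPKM in siUAP1 libraries and 263 ± 65.3 FPKM in control libraries (SD, n = 3 each). PLAU averaged 239 ± 25.0 FPKM in siUAP1 libraries and 175 ± 12.02 FPKM in control libraries (SD, n = 3 each), within 1 SD of PLAT in siUAP1 libraries but not in control libraries. PLAT and PLAU together took 70.5% to 78.0% of the summed FPKM of the 36 genes in siUAP1 libraries and 64.3% to 69.2% in control libraries. SERPINB2 followed with 61.4 ± 6.90 FPKM in siUAP1 libraries and 96.4 ± 3.21 FPKM in control libraries (SD, n = 3 each). SERPINH1 at 38.3 FPKM stood above PLAUR at 24.7 FPKM in siUAP1 libraries, whereas in control libraries SERPINH1 at 32.9 FPKM and PLAUR at 34.7 FPKM were within 1 SD of SERPINH1 (10.0 FPKM). SERPINB8, SERPINB6 and SERPINE2 lay between 6.53 and 6.84 FPKM in siUAP1 libraries and between 5.25 and 6.30 FPKM in control libraries, closer to each other than the spread of SERPINE2.

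**Figure D4:**
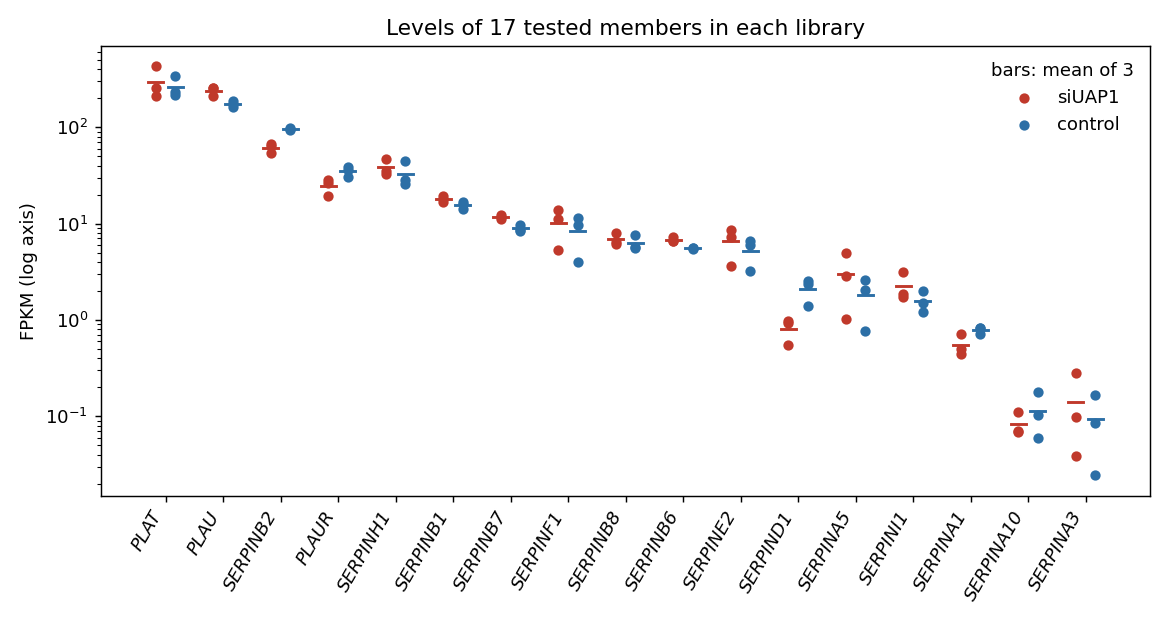
FPKM on a log axis of the 17 tested genes in each library, ordered by their control mean, with siUAP1 at the left of each gene and control at the right and bars for the means of 3 libraries. The levels run from 298 FPKM for PLAT to 0.0834 FPKM for SERPINA10 in siUAP1 libraries.

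The members differed in how far they followed the replicate number. The number took more of the spread of log2 CPM than the siRNA did in 9 of the 17 genes, and at least 80% of it in 7. The number has more levels than the siRNA, so spread without structure would on average already give it the larger share. The same count was not made over all tested genes. In SERPINF1 the number took 94.1%, in PLAT 91.7% and in SERPINE2 91.6%. In SERPINB2 the siRNA took 91.4%, in SERPINB6 90.5% and in PLAU 81.8%. The libraries' names share a code within each number, and what the number stands for is not stated. All 3 pairs had the same sign in 15 of the 17 genes, 11 higher and 4 lower in siUAP1, with PLAT and SERPINA10 as the exceptions. Of all tested genes, 47.0% had 3 pairs of one sign, 23.4% higher and 23.6% lower. The groups did not overlap in 7 of the 17 (3 higher and 4 lower), against 12.4% of all tested genes (6.74% higher and 5.71% lower).

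**Figure D5:**
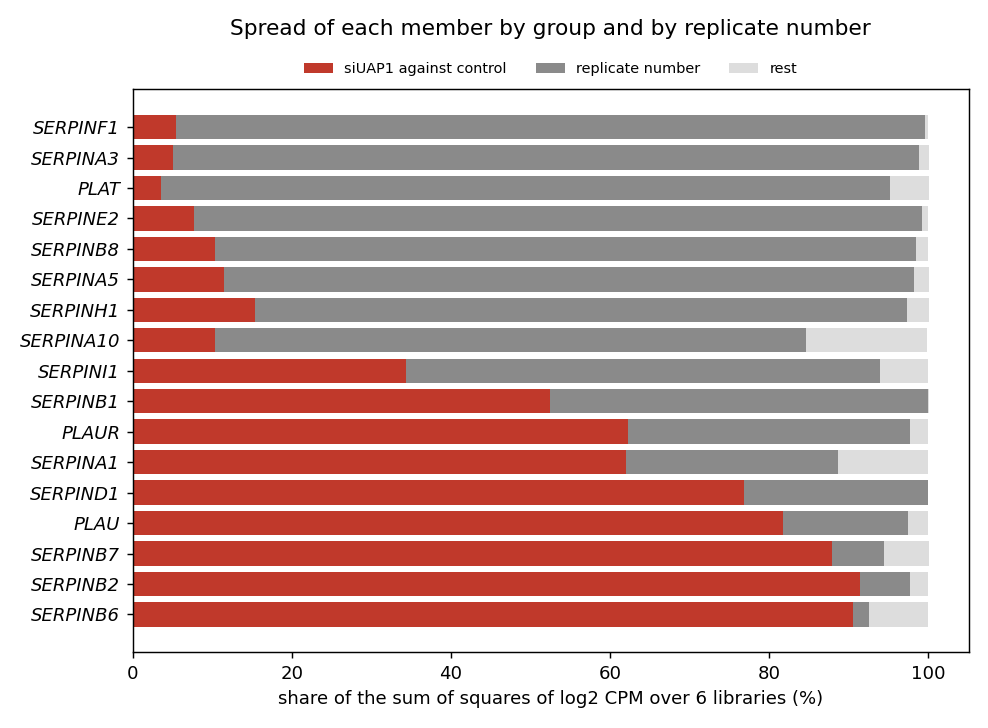
Share of the sum of squares of log2 CPM over the 6 libraries that goes with the siRNA, with the replicate number and with neither, for the 17 tested genes. The number takes 94.1% in SERPINF1 at the top, and the siRNA 90.5% in SERPINB6 at the bottom.

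The other 19 members had too few counts to be tested. SERPINA6 (3 to 10 counts a library), SERPINB3 (1 to 9), SERPINB9 (0 to 12), SERPINB4 (0 to 8), SERPINE3, SERPINB10, SERPINC1, SERPINA4, SERPINF2, SERPINA7 and SERPINI2 had some counts, with no more than 12 in any library. SERPINB3 and SERPINB4 are near-identical copies, so reads may be split between them. SERPINA9, SERPINA11, SERPINA12, SERPINB5, SERPINB11, SERPINB12, SERPINB13 and SERPING1 had 0 counts in all 6 libraries. SERPINB5 encodes maspin, and SERPING1 encodes the inhibitor of the first complement component.

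The serpin clusters held genes that rose, fell and did not pass the test. On chromosome 18, 10 clade B genes lie between 63476761 and 64019779. Of these, 3 were tested, and SERPINB7 rose while SERPINB2 fell and SERPINB8 did not pass the test. On chromosome 6, SERPINB1 and SERPINB6 both rose (2832332 to 2972165), and SERPINB9 between them was not tested. The non-coding SERPINB9P1 between SERPINB1 and SERPINB9, outside the members and named after its values were seen, had 57, 42 and 39 counts in siUAP1 libraries, against 13, 16 and 23 counts in control libraries (log2 1.31, SE 0.347, adjusted p = 0.00977). On chromosome 14, 4 of 9 clade A genes were tested and SERPINA5 was the only one called.

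Receptors and partners of the plasminogen system included 16 genes that rose and 2 that fell. Of all tested genes, 9.07% rose and 7.14% fell. The 46 genes listed include receptors, cofactors and clearance receptors, and also plasminogen itself, proteases, growth factors and others. Of the 46, 35 were tested, with a median log2 fold change of 0.19, and the remaining 17 of these were not called. The integrin genes ITGB5 (0.72, SE 0.0472), ITGA5 (0.66, SE 0.0460) and ITGA3 (0.51, SE 0.0466), whose products associate with the urokinase receptor or bind its ligand vitronectin or fibronectin, rose, and so did CAV2 (0.50). KRT8 (0.78) and KRT18 (0.50), of which the first can bind plasminogen at the cell surface, rose as well, and share exon bases on opposite strands, so their counts are uncertain. The 2 that fell, named after their values were seen, are plasminogen receptors. ANXA2 had 1465, 1573 and 1629 CPM in siUAP1 libraries, against 1838, 1940 and 2280 CPM in control libraries (log2 -0.37, SE 0.0497, adjusted p = 5.60e-06). PLGRKT had 18.8, 26.2 and 33.0 CPM in siUAP1 libraries, against 29.1, 29.4 and 43.8 CPM in control libraries (log2 -0.39, SE 0.0809, adjusted p = 0.00109). S100A10, the partner of ANXA2 and also named after its values were seen, rose (0.37, SE 0.0562). The abundant ENO1 (-0.06), CAV1 (0.14) and SERBP1 (-0.03) were not called. Plasminogen itself (PLG) had 1 count in siUAP1 library 1 and 0 counts in the others, controls included.

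Transcription factors and mRNA-binding proteins linked to PLAU, PLAUR and related genes went both ways. Of 48, 9 rose, 12 fell and 27 were not called, with a median of -0.03, where 9.07% of all tested genes rose and 7.14% fell. KHSRP and ETV5 were also called in the fit without pairs. SKI, a repressor of SMAD signalling (-1.08, SE 0.0749), KHSRP, which binds AU-rich elements and speeds mRNA decay (-0.89, adjusted p = 4.73e-12), the ETS factor ETV5 (-0.86, SE 0.0529), EGR1 (-0.82, SE 0.0971) and KLF2 (-0.54, SE 0.0896) fell, while SMAD7, an inhibitory SMAD (0.83, SE 0.227), rose. ETV5 shares exon bases with DGKG. SMAD7 had 118, 86 and 66 counts in siUAP1 libraries, against 60, 60 and 25 counts in control libraries, and its groups overlapped. The AP-1 subunit gene FOSL1 (0.11, SE 0.0461, adjusted p = 0.130) and the mRNA-binding HNRNPC (-0.07) and ELAVL1 (-0.09) were not called.

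Of 32 protease inhibitors outside the serpins, 12 were tested, and 0 rose and 2 fell, with 10 not called and a median of 0.04. TFPI, the inhibitor of tissue factor, fell (-0.49, SE 0.0463, adjusted p = 2.14e-08), as did ANOS1, which encodes the matrix protein anosmin (-0.41, SE 0.104). APP (-0.05), APLP2 (0.10) and TFPI2 (-0.06) were not called. Of 53 proteases listed as targets of serpins or acting beside them, 21 were tested, 8 rose and 0 fell, with a median of 0.17. Those of largest change were C1R (1.13, SE 0.227), a target of SERPING1 that shares exon bases with C1RL, the prolyl protease gene FAP (0.98, SE 0.113), MASP1 (0.46), FURIN (0.41, SE 0.0497), CTSK (0.31) and CTSL (0.26). C1R had 154, 145 and 44 counts in siUAP1 libraries, against 44, 65 and 32 counts in control libraries. MASP1 had 407, 190 and 70 counts in siUAP1 libraries, against 259, 126 and 56 counts in control libraries. The groups overlapped in C1R, FAP, MASP1 and CTSK, but not in FURIN and CTSL. PRSS12, CASP8 and PRSS3 were not called, at -0.06, 0.10 and 0.01. The calls of the partners, regulators, inhibitors and proteases made up 51.4%, 43.8%, 16.7% and 38.1% of their tested genes. Of all tested genes 16.2% were called (9.07% higher and 7.14% lower), and of those averaging at least 5 CPM 21.6% were. Because the lists were chosen with earlier results of these data known, their shares are no test of the lists.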

How the data were processed

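RNA-seq of 3 siUAP1 and 3 control libraries was analysed from 2 tables, counts per gene and FPKM, both deposited by the authors. The submitters' processing notes name GRCh38.p12 and DESeq2; which programs aligned and counted the reads, and whether by strand, is not given in the sources used here. Libraries were grouped by title. Whether replicates are separate cultures is not labelled: p-values then reflect only how these libraries vary, which may be technical.

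The counts were fitted with edgeR 4.0.16 (R 4.3.3) using TMM scaling, filterByExpr (minimum count 10), a quasi-likelihood test of siUAP1 against control and Benjamini-Hochberg adjustment across all 15768 tested genes, threshold 0.05. CPM use TMM-scaled totals, and pair differences log2 CPM with a prior count of 2. The edgeR, DESeq2 and limma fits, with and without pairs, were run on simulated counts, with the outcome not given here. Those counts had a level set for each replicate number, so they cannot show whether pairing is right for these libraries. SE is the fold change over the root of the F statistic. FPKM, scaled to length and depth as the authors deposited them, served for levels between genes.

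Libraries with the same number, which the titles give, correlated at 0.552, 0.454 and 0.584 in their deviations from the group mean, all over the limit of 0.1 set for pairing, and the number was entered as a block. Within groups, no library was a copy of another (chi-square over its degrees of freedom 23.9 to 41.3). All 36 members had the start and end of GENCODE release 29.

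The members and lists were chosen with earlier results of these data known. Another gene that meets the rule is not reported here and is left out of all counts of members, but not of the fits. Every other tested member is named. Of the other lists, up to 6 called genes of largest change and up to 3 abundant genes not called are named. The planned comparison of protein loops was not made. Alternatives used limma 3.58.1 and DESeq2 1.42.0.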

Additional observations from a re-analysis of the deposited data

How the results depend on the processing

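In the fit on the groups alone the count of called members was 0, with 17 of all genes called. With the replicate block it was 11 of 17, with 2556 of all genes. The fit on the groups alone was planned as the main one, with the block as an alternative. Values with the block are given wherever a call is named, because libraries of the same number deviated together. Pairing changed most of these calls. With the block, the count of members was 11 with RLE scaling or with library totals, 14 with no filter beyond 1 count (adding PLAT, SERPINA1 and SERPINI1), 9 with DESeq2, and 7 with limma on log2(FPKM + 1) or log2(FPKM + 0.1) at a mean FPKM of at least 1. With limma and pairs, SERPINA5, SERPINB6, SERPINE2 and SERPINH1 lost their calls at both pseudocounts (the cause was not tested), and SERPIND1 stood at -0.76 with pseudocount 1 and -1.26 with 0.1. Without pairs it was 3 with DESeq2 and 2 with no filter, and 0 under the other scalings and with limma. PLAU, PLAUR, SERPINB2, SERPINB7 and SERPIND1 were called in all 10 fits with pairs.

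With the block, all genes called numbered 2539 (RLE), 2587 (library totals), 2540 (no filter), 1304 (DESeq2), 944 and 920 (limma, pseudocounts 1 and 0.1), the partners 18, or 17, 19, 18, 18, 14 and 13 in the same order, the regulators 21, or 19, 21, 20, 16, 11 and 11, the inhibitors 2, or 2, 2, 2, 1, 1 and 1, and the proteases 8, or 8, 8, 8, 7, 5 and 5. Without pairs, DESeq2 called 166 genes, 5 partners, 4 regulators and 1 inhibitor, and no filter 110 genes, 5 partners and 4 regulators. Limma without pairs called 2 genes (pseudocount 1), 3 (pseudocount 0.1) or 1 (no FPKM filter), and 0 regulators each time.

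Leaving out libraries or pairs gave 0 to 11 members, 1 to 2204 genes, 0 to 18 partners (15 to 18 with pairs), 0 to 21 regulators, 0 to 2 inhibitors and 0 to 7 proteases, the low ends from single libraries left out without pairs. UAP1 ranged from -4.10 to -3.91. Without pairs, leaving out single libraries gave -0.178 (without siUAP1 replicate 1) to 0.399 for PLAT, -0.0643 (without control replicate 3; -0.0116 without siUAP1 replicate 2) to 0.583 for SERPINF1, -0.749 to 0.0569 (without control replicate 2) for SERPINA10 and -0.401 (without siUAP1 replicate 1) to 1.31 for SERPINA3, which reverses their direction; none of these 4 was called without pairs. With pairs, 8 members and 1195 genes were called without pair 3, 10 and 2204 without pair 1, and 11 and 1987 without pair 2; why pair 3 counts most was not tested.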
